A study of Ictidomys tridecemlineatus with 15 samples.

Results

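Retinal ganglion cells (RGCs) of the newborn and juvenile 13-lined ground squirrel (13LGS) are described here from P1 to P21, where P is the postnatal day. The members are all cells that the deposited annotation calls RGC at P1, P4, P8, P12, P17 and P21. They number 2820 of 33764 postnatal cells (8.35%) and of 53394 cells in the whole series. A further 5700 annotated RGCs came from E18, E21, E24 and E26, where E is the embryonic day and birth is at E27. Whole retinas of captive animals were profiled by droplet single-cell RNA sequencing, which counts mRNA molecules through unique molecular identifiers (UMIs). The labels name no genotype, strain, sex or treatment, so age is the only difference between groups that the labels give. The groups also differ in library and in depth, and the methods state that retinas were methanol-fixed or flash-frozen without saying which library was which. How many animals were pooled for a retina library is not given in the sources used here.

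RGCs are the neurons that carry the output of the retina to the brain, and their axons form the optic nerve. They are among the first neurons that retinal progenitors make. In many mammals a large part of them is lost by programmed cell death around and after birth, while the survivors extend dendrites, receive synapses from bipolar and amacrine cells and split into many functional types. The 13LGS is a day-active rodent with a cone-rich retina.

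A library is a time point together with the suffix of the cell name, which gives 9 postnatal libraries: P1a and P1b, P4, P8a and P8b, P12a and P12b, P17 and P21. The labels used here describe 1 sample at P1 although the cell names carry 2 suffixes. Both were used, and the share, the counts of called rows and the rows given by number in the postnatal comparisons are also given with them summed or left out. Nothing in the labels ties the libraries of an age to separate animals, so p-values measure the spread between these libraries, which may be technical. The RGCs of a library summed to between 640859 UMIs (P8b) and 7403947 UMIs (P1b). P8b stood apart from the others, with the fewest cells (1369) and the lowest RGC depth. Among the postnatal libraries 123 cell barcodes occurred more than once, and 1 of these barcodes belonged to an RGC.

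The files do not pair gene names with the rows of the count matrix. Genes are therefore counted as rows, and their functions and sequences are not described here. For each comparison at most 2 rows that rose and 2 that fell are given by their row number, counted from 1, and the others are described by their levels. For the same reason the named RGC markers Sncg, Nefl, Rbpms and Gap43 could not be looked up. The label was checked instead with 20 rows that lead in the RGCs of the embryonic libraries, a choice made without any postnatal cell.

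RGCs were a large part of the retina at P1 and a small part from P4 on, except in P8b. They made up 17% of P1a (541 cells, 95% Wilson interval 15.7% to 18.3%) and 24% of P1b (896 cells, 22.7% to 25.4%). At P4 the share was 5.6% (219 cells, 4.93% to 6.37%). The P8 libraries held 3.85% (116 cells, 3.22% to 4.6%) and 13.4% (184 cells, 11.7% to 15.3%). The intervals cover counting error only, and those of P8a and P8b lie far apart although both are of the same age.

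At P12 the shares were 3.82% (163 cells) and 5.49% (217 cells), at P17 5.17% (273 cells) and at P21 4.17% (211 cells). The P12 to P21 libraries thus fell within a narrow band of 4.66% ± 0.793 (SD, n = 4), against 12.8% ± 8.3 (SD, n = 5) from P1 to P8, and the groups overlapped. The embryonic libraries ranged from 20.3% to 41.3%, and P1b lay inside that range. A share depends on the number of other cells as well as on the number of RGCs, and these cannot be told apart in dissociated tissue.

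Over the 9 libraries the share was negatively ranked with postnatal day. Spearman's rho was −0.73 (exact two-sided permutation p = 0.0322, adjusted p = 0.0536 over 5 measures) and Pearson's r was −0.70 (exact permutation p = 0.0351, adjusted p = 0.0677). The relation missed the threshold after adjustment. Without P21 and P17, the libraries farthest from the median age, r was −0.76. The relation rested on P1, since without it rho was −0.42 (exact permutation p = 0.354), and with the P1 libraries summed it was −0.61 (exact permutation p = 0.112). It also missed the threshold without P1a (rho −0.61), P1b (−0.61), P4 (−0.64) or P8b (−0.69), with exact permutation p from 0.0663 to 0.112.

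RGCs gave more UMIs per cell than the other classes of the postnatal retina. The median RGC had 10257 UMIs in P1a, 7547.5 in P1b, 4040 at P4, 7592.5 in P8a and 3180 in P8b. It had 8407 UMIs in P12a, 14750 in P12b, 11044 at P17 and 10976 at P21. The P8b and P4 values were the lowest, and RGCs had the highest median of all annotated classes in 8 of 9 libraries. The exception was P8b, where photoreceptor precursors had 3887.

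The depth of a library moves all its classes, so the median RGC was set against the median amacrine cell of the same library. Amacrine cells are the other large class of inner retinal neurons present in every postnatal library. The ratio of RGC to amacrine UMIs was 3.02 in P1a, 2.63 in P1b, 2.57 at P4, 3.41 in P8a and 1.58 in P8b. It was 4.01 in P12a, 4.1 in P12b, 3.7 at P17 and 4.47 at P21, so that the ratios of the later libraries all lay above those of the earlier ones. Its rho with age was 0.76 (exact permutation p = 0.022, adjusted p = 0.0536), which missed the threshold. Against all other cells the corresponding rho was 0.84 (exact permutation p = 0.00767, adjusted p = 0.0384), but r was 0.72 (exact permutation p = 0.0254, adjusted p = 0.0677) and 0.36 without P21 and P17. Without P8b the rank relations were 0.84 to amacrine cells (exact permutation p = 0.0131) and 0.95 to all other cells (exact permutation p = 0.00119), chosen after the data were seen.

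**Figure D1:**
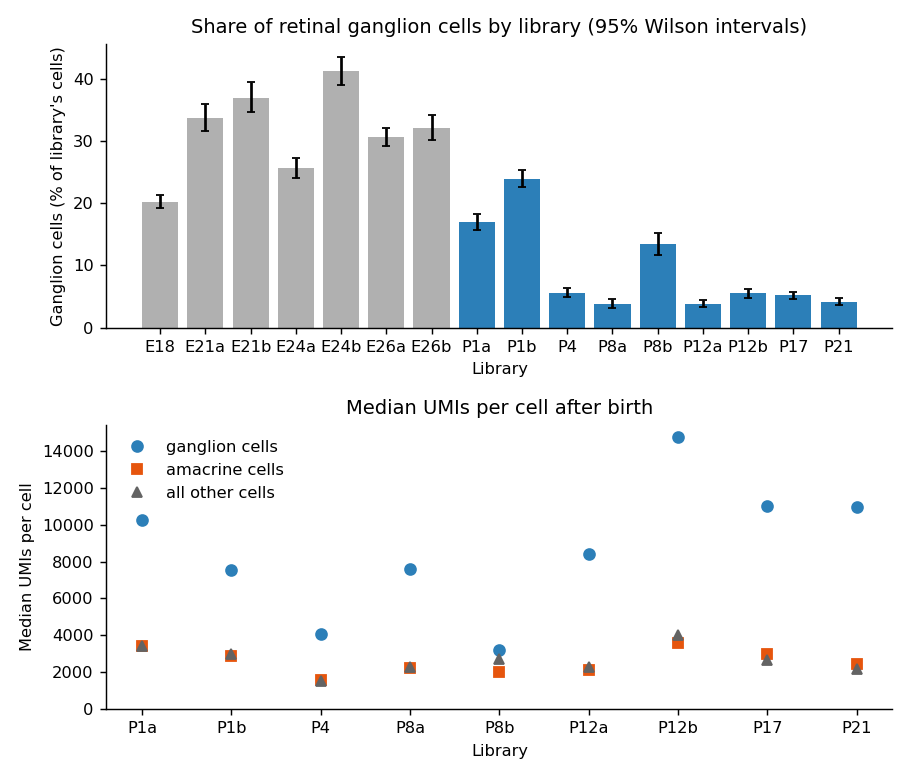
The upper panel gives the percent of each library's cells annotated as RGC, with 95% Wilson intervals (grey bars embryonic, blue bars postnatal). The lower panel gives median UMIs per cell after birth. The share falls from 24% in P1b to 4.17% at P21 with P8b (13.4%) out of line, and the RGC median is above the amacrine median in each of the 9 libraries.

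The label held on the rows that lead in embryonic RGCs. These were the 20 rows with the highest ratio of RGC level to the level in the next highest class, out of 1659 rows at 100 CPM or more. Levels are in CPM, the UMIs of a row in every 1e6 UMIs of a sum. At the edge of the choice, the last rows kept had log2 ratios of 3.14 and 3.05 and the first rows left out had 3.03 and 3.00. In all 9 postnatal libraries each of the 20 rows was higher in RGCs than in the sum of all other cells. RGCs against other classes is a description without a test, because the annotation was made from the genes of these cells.

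Together the 20 rows took 1.02% (P8b) to 1.84% (P21) of all RGC UMIs after birth, and 0.0328% to 0.123% of amacrine UMIs. Between 97.6% and 100% of the RGCs of a library had at least 10 UMIs in them. The corresponding share among other cells was between 0.0271% (1 of 3689 cells at P4) and 3.47% (168 of 4846 cells at P21). RGCs hold more UMIs per cell than other cells, which bears on these shares but not on the CPM.

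Row 21522 was the row that separated postnatal RGCs best. Its level in RGCs was 1086 CPM in P1a, 1032 in P1b, 1962 at P4, 1350 in P8a, 1022 in P8b, 1414 in P12a, 735 in P12b, 629 at P17 and 1158 at P21. In amacrine cells it lay between 2.55 and 20.1 CPM. The lowest RGC library was therefore far above the highest amacrine library, and the mean RGC level was 1154 CPM, against 7.13 CPM in the next highest class, late-stage neurogenic progenitors. Row 17562 (177 to 602 CPM) ranked 2 and row 3853 (848 to 2657 CPM) ranked 5 by the same ratio after birth.

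Not all embryonic leaders kept that place. Of the 20 rows, 9 were also among the 20 leading rows chosen in the postnatal libraries. The row of rank 16 was at 199 to 1036 CPM in postnatal RGCs, with a median of 550, but horizontal cells reached a mean of 905 CPM, against 33.2 CPM before birth. The row of rank 1 lay between 142 and 620 CPM in postnatal RGCs while amacrine cells ranged from 6.52 to 435 CPM. Before birth the next highest class for it, early-stage neurogenic progenitors, had held 4.35 CPM.

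**Figure D2:**
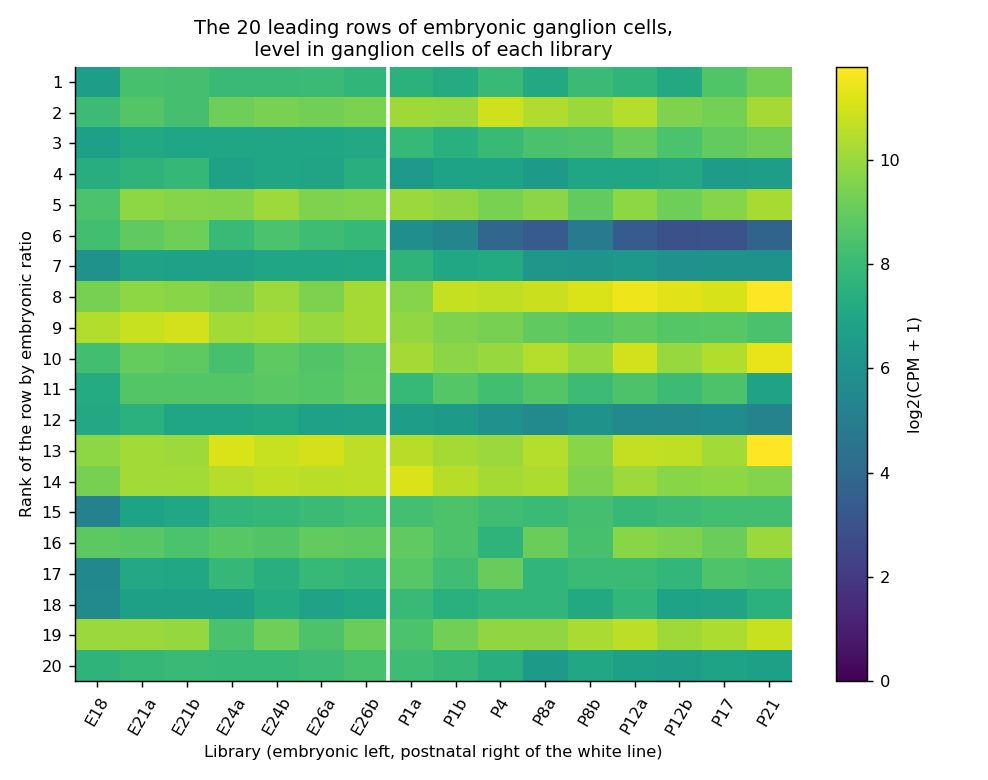
Level, as log2(CPM + 1), of the 20 rows that led in embryonic RGCs in the RGCs of every library, in the order of their embryonic ratio, with embryonic libraries left of the white line. Row 32594, of rank 6, drops from 239 CPM or more before birth to at most 58.3 CPM after it. The other rows stay at 35.2 CPM or more in all libraries. The rows of rank 9 and 12 are also lower in each postnatal than in each embryonic library.

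The first comparison asks how RGCs after birth differ from RGCs before birth, with 9 postnatal against 7 embryonic libraries. Of 14780 tested rows, 7221 (48.9%) were called at an adjusted p below 0.05 by edgeR's quasi-likelihood test, 3758 (25.4%) of them higher and 3463 (23.4%) lower after birth. Changes of 2-fold or more made up 1927 rises and 1547 falls. In 2179 tested rows (14.7%) the libraries of the 2 stages did not overlap in CPM. The library medians averaged 10980 ± 2638 UMIs per RGC before birth (SD, n = 7) and 8644 ± 3614 after it (SD, n = 9), and 7200 ± 2223 against 2663 ± 739 UMIs per other cell. With every RGC sum thinned to the same total, 3534 of 7812 tested rows were called.

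Row 20263 was almost silent in embryonic RGCs and became a leading RGC row after birth. It was at 0 CPM in the E18 and E21 libraries, 3.73 and 0.16 CPM at E24, and 10.6 and 10 CPM at E26. After birth it stood at 130 CPM in P1a, 135 in P1b, 321 at P4, 506 in P8a, 267 in P8b, 891 in P12a, 909 in P12b, 957 at P17 and 834 at P21. Every postnatal library was above every embryonic one, and the P12 to P21 libraries were above all younger ones. The log2 change from the embryonic to the postnatal libraries was 7.14 ± 0.95 (SE; edgeR adjusted p = 1.53e-05). Within the postnatal libraries the row rose again by 1.74 ± 0.35 (SE; edgeR adjusted p = 0.0348). The second of these calls was lost with the P1 libraries summed (1.57, edgeR adjusted p = 0.0699), without P1 (1.32, edgeR adjusted p = 0.219), and without P1a, P1b, P4, P8b, P17 or P21. The other cells of the retina were at 2.87 to 9.26 CPM in P1 to P8 and 5.21 to 80.5 CPM in P12 to P21.

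Row 11210 followed a similar course at a higher level. It was at most 0.557 CPM in the E18 and E21 libraries, 20.9 and 7.92 CPM at E24, and 45 and 58.3 CPM at E26. The postnatal values were 626, 450, 1188, 1383, 935, 1273, 972, 1909 and 3381 CPM from P1a to P21 in the order of age. The stages did not overlap and P21 was the highest library. Other cells also had more of it after birth, at 0.0651 to 2.96 CPM in embryonic and 21.1 to 248 CPM in postnatal libraries. The log2 change from the embryonic to the postnatal libraries was 6.03 ± 0.95 (SE; edgeR adjusted p = 6.19e-05). With E26 and P1 alone it was 3.36 (edgeR adjusted p = 0.0678, not called). Between the postnatal periods it was 1.04 ± 0.38 (SE; edgeR adjusted p = 0.162), which missed the threshold.

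The other 3 named rises were less abundant. The rise with the smallest adjusted p went from 0.777 to 1.67 CPM in embryonic RGCs to 23.7 to 175 CPM after birth (log2 change 6.20 ± 0.44 SE, edgeR adjusted p = 6.02e-08). Other cells held 0.0792 to 11.7 CPM of this row before birth and 9.19 to 73.9 CPM after it. In P1a and P1b amacrine cells had more of it than RGCs, at 88.3 and 102 CPM against 23.7 and 28.6 CPM. From P4 on they had less of it than RGCs. The smallest of the 5 rises went from at most 3.21 CPM to a range of 3.53 to 840 CPM (5.78 ± 1.04 SE, edgeR adjusted p = 0.000193). There 1 library, P21, set the upper end, and without it the change was 4.16. With E26 and P1 alone the change was 0.76 (edgeR adjusted p = 0.412, not called).

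The remaining row was below 1.2 CPM in each embryonic library and at 122 CPM in P1a, 83.7 in P1b, 62.6 at P4, 76.6 in P8a, 31.2 in P8b, 46.8 in P12a, 93.7 in P12b, 202 at P17 and 3.84 at P21. The stages did not overlap, though P21 came close to the embryonic level. The log2 change was 6.85 ± 0.62 (SE; edgeR adjusted p = 6.26e-07). Other cells of the same libraries were at 25.3 to 62.7 CPM in P1 to P8 and 2.61 to 117 CPM in P12 to P21, so this row was not confined to RGCs.

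Row 32594, a leading row of embryonic RGCs, was far lower after birth. Embryonic RGCs held 239 to 587 CPM of it. The postnatal libraries held 58.3, 39.6, 14, 9.58, 28.1, 9.79, 6.47, 7.08 and 12.8 CPM from P1a to P21. P1a and P1b were the highest after birth, both still far below the lowest embryonic library. The log2 change was −4.08 ± 0.42 (SE; edgeR adjusted p = 2.45e-06) and −2.42 with E26 and P1 alone (edgeR adjusted p = 0.121, not called), and between the postnatal periods it was −1.86 ± 0.47 (SE; edgeR adjusted p = 0.0613), which missed the threshold.

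A further named fall was highest in the youngest RGCs. This row was at 260 CPM at E18, 58.8 and 145 CPM at E21, 5.39 and 10.4 CPM at E24 and 5.82 and 3.96 CPM at E26, while other embryonic cells had 0.647 to 3.56 CPM. After birth 4 UMIs were counted among 26288625, in P12b, P17 and P21, against 4312 of 66617158 before birth. The pooled ratio was 425 (95% interval from counting 166 to 1562), and the log2 change was −8.69 ± 1.28 (SE; edgeR adjusted p = 3.51e-05).

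The remaining 3 named falls were shared with other cells. The largest fall ranged from 5.64 to 467 CPM in embryonic RGCs and from 9.3 to 748 CPM in other embryonic cells, and 2 UMIs of it were found in postnatal RGCs, both in P1b. Row 33363 went from 131 to 2069 CPM before birth to 23.4 to 84.6 CPM after birth in RGCs, and other embryonic cells had 67.5 to 3266 CPM. The smallest of the 5 falls went from 22 to 124 CPM to 0.854 to 9.32 CPM, with 28.3 to 125 CPM in other embryonic cells. In the same order their log2 changes were −11.02 ± 0.98, −4.18 ± 0.46 and −3.92 ± 0.41 (SE; edgeR adjusted p = 5.95e-07, 3.9e-06 and 2.59e-06).

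Among the 20 embryonic leading rows, 6 were called higher after birth and 5 lower, against 25.4% and 23.4% of all tested rows, so that these counts are near the background. Their median log2 change was 0.01, against −0.02 over all tested rows. The rises ran from 0.68 to 1.65 on the log2 scale, with rows 3853 (1.65) and 17562 (1.49) at the upper end. The falls ran from −0.66 to −4.08, the largest in rows 32594 (−4.08) and 5912 (−1.43). The other 9 rows were not called (0 at an unadjusted p below 0.05 in edgeR, and 0 by DESeq2), and the row of rank 5, for example, was at 766 ± 216 CPM (SD, n = 7) before birth and 825 ± 220 CPM (SD, n = 9) after it. The rows were chosen for a high embryonic level, which bears on the direction of a change from it.

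**Figure D3:**
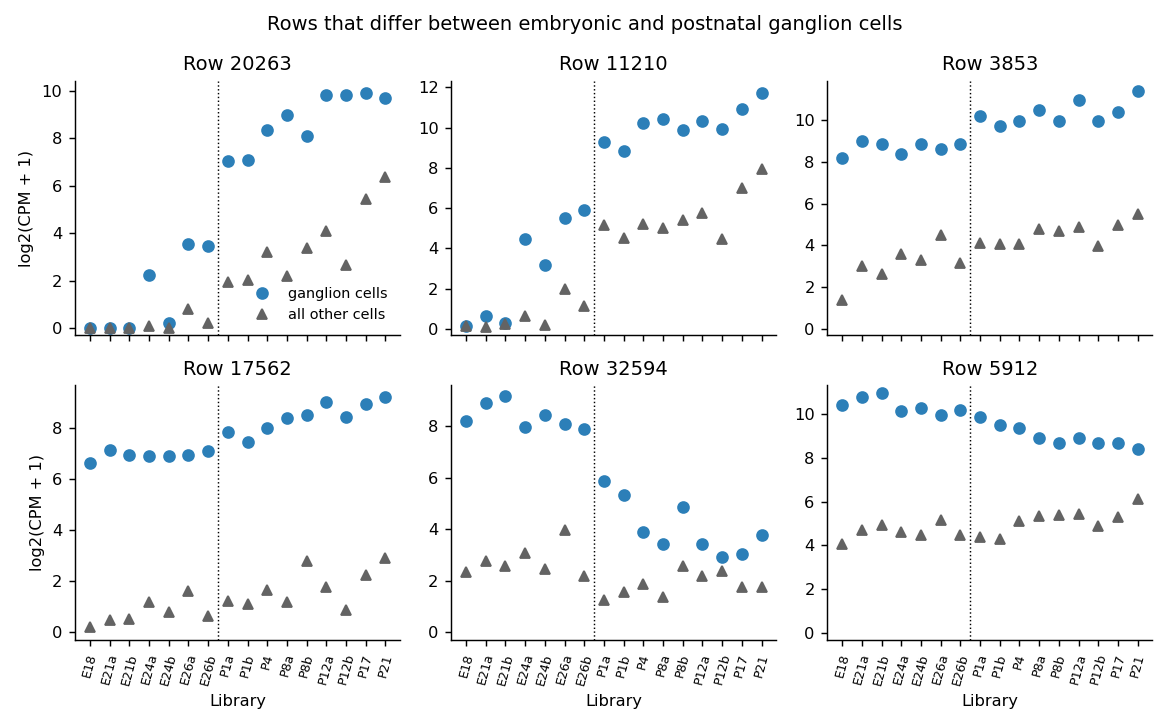
Level, as log2(CPM + 1), of 6 rows in RGCs (circles) and in all other cells (triangles) of each library, with birth at the dotted line. Rows 20263 and 11210 climb from near 0 at E18 to 834 and 3381 CPM at P21, row 32594 is lower in each postnatal than in each embryonic library, and rows 3853, 17562 and 5912 change by less.

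The step at birth itself was tested with the adjacent ages alone, E26 against P1, with 2 libraries each. Of 15730 tested rows, 6 (0.0381%) were called higher at P1 by edgeR and 0 lower, and 1279 higher and 1115 lower rows had an unadjusted p below 0.05. Row 20263 and another 2 of the named rises were among the 6, and the other 3 are described here after their values were seen.

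The first of these 3 rows was at 40.6 and 52.8 CPM at E26 and at 395 CPM in both P1 libraries, after 6.11 to 33.8 CPM at the younger ages. Other cells of the same libraries were at 32.2 and 44.9 CPM before and 50.3 and 43.3 CPM after birth. The log2 change in RGCs was 3.05 ± 0.23 (SE; edgeR adjusted p = 0.04), and the row stayed at 399 to 900 CPM from P4 to P21. The other two were also present in other cells. The second was at 405 CPM at E18, 220 and 17.7 CPM at E21, and 7.85 and 11.3 CPM at E26, and then at 426 and 307 CPM in the P1 RGCs and at 715 and 525 CPM in other P1 cells. The third was at 20.8 and 26.9 CPM in the P1 RGCs, at 16.8 and 19.2 CPM in other P1 cells and at 0 in the RGCs of every later library.

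The second comparison asks how RGCs change during the first 3 weeks after birth, between the 5 libraries of P1 to P8 and the 4 libraries of P12 to P21. Of 11971 tested rows 165 (1.38%) were called by edgeR's quasi-likelihood test, 91 (0.76%) higher and 74 (0.618%) lower at the later ages, and 2246 had an unadjusted p below 0.05. The groups did not overlap in 83 of the 91 and 64 of the 74 called rows, and in 785 (6.56%) of all tested rows. The later mean in RGCs was above that of other cells in 77 of the 91 rows that rose. Of the 74 rows that fell, the earlier RGC mean was above that of other cells in 25. By mean CPM, amacrine cells changed in the same direction in 87 of the 91 rises and 65 of the 74 falls. For the counts against other cells and against amacrine means, the corresponding shares over all tested rows were not counted. These counts are therefore not read as a trait of the called rows. In the comparison with amacrine cells below, 24 of the rises and 24 of the falls were called, against 10.5% of all tested rows.

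This count was unsteady. It was 9 of 11138 rows (0.0808%) with the P1 libraries summed, 3 (0.0269%) up and 6 (0.0539%) down, and 2 without P1, both of them falls and 1 of them row 27128. Leaving out a single library gave 5 calls without P4, 6 without P1b, 7 without P1a, 14 without P17, 15 without P21 and 358 without P8a, and 188 without P8b. It was 9 without P4 and P8b together, and DESeq2 called 667. With postnatal day as a continuous covariate, 1387 rows (11.6%) were called, 784 up (6.55%) and 603 down (5.04%). Of the 20 rows chosen for description, 20 were called by DESeq2 and 20 with day as a covariate, but 7 with the P1 libraries summed, 2 without P1 and 3 without P4 and P8b.

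Row 12524 was the most abundant of the rows that rose. It was at 293 CPM in P1a, 446 in P1b, 183 at P4, 937 in P8a, 529 in P8b, 1368 in P12a, 2260 in P12b, 2221 at P17 and 3193 at P21. The periods did not overlap, and P8a was the highest of the early libraries. The mean was 478 ± 289 CPM (SD, n = 5) early and 2261 ± 746 CPM (SD, n = 4) late, a log2 change of 2.25 ± 0.40 (SE; edgeR adjusted p = 0.0285). The call was lost with the P1 libraries summed (2.17, edgeR adjusted p = 0.0699), without P1 (2.06, edgeR adjusted p = 0.244), and without P1a, P1b, P4, P17 or P21. Embryonic RGCs held 355 to 533 CPM, so the rise began from a level present before birth. Other cells held 69.5 to 197 CPM early and 247 to 1317 CPM late, and thus also had more of it at the later ages.

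Another rise, the one with the smallest adjusted p, was in a row that was higher in RGCs than in other cells. This row was at 12.1 CPM in P1a, 11.6 in P1b, 11.9 at P4, 25.5 in P8a, 14 in P8b, 49.6 in P12a, 43.5 in P12b, 75.7 at P17 and 114 at P21. The periods did not overlap, and all other cells together had at most 14.9 CPM in any postnatal library. Amacrine cells also had more of it late, with a mean of 7.45 CPM early and 17.9 CPM late, and 28.5 CPM at P21. The log2 change in RGCs was 2.28 ± 0.33 (SE; edgeR adjusted p = 0.0147). The row was also called with the P1 libraries summed (2.23 ± 0.36 SE, edgeR adjusted p = 0.0427), and not without P1 (2.04, edgeR adjusted p = 0.219), P1a, P1b or P4.

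Row 10194 rose to a high level in the oldest library. It was at 3.53, 7.43, 14, 43.6 and 28.1 CPM in P1a, P1b, P4, P8a and P8b, and at 66.4, 47.9, 147 and 840 CPM in P12a, P12b, P17 and P21. The periods did not overlap, and P21 was far above the rest, at 840 CPM against 7.09 to 51.4 CPM in other cells of the P12 to P21 libraries. The log2 change was 4.09 ± 0.89 (SE; edgeR adjusted p = 0.0441). The call was lost without P21 (2.44, edgeR adjusted p = 0.125), with the P1 libraries summed (3.78, edgeR adjusted p = 0.0936), without P1 (3.27, edgeR adjusted p = 0.285), and without P1a, P1b, P4, P8b or P17, so that it held in 3 of 9 fits with 1 library left out. Another 4 rows showed changes of 3.03, 2.98, 2.62 and 2.46 on the log2 scale (edgeR adjusted p = 0.0474, 0.0171, 0.0347 and 0.0347), with P21 the highest library in each. None of these 4 was called with the P1 libraries summed or without P1.

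The row with the largest rise was at 0 in the RGCs of all 5 early libraries (0 of 15863423 UMIs) and at 20.3 CPM in P12a, 5.88 in P12b, 11.7 at P17 and 184 at P21. P21 held most of it. Pooled over libraries the later level was at least 263-fold higher than the level that 3 UMIs over the early libraries would give, and at least 56.9-fold without P21. Its call was lost with the P1 libraries summed (edgeR adjusted p = 0.0832), without P1 (0.293), and without P1a, P1b, P4 or P17. Cones held a mean of 4618 CPM of this row after birth, and other cells of the P12 to P21 libraries 139 to 6882 CPM. A further row that rose, at 5.94 to 29.8 CPM early and 41.1 to 254 CPM late, is a leading row of horizontal cells, which held 266 CPM, and it too was not called with the P1 libraries summed (edgeR adjusted p = 0.0699) or without P1 (0.265).

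The second largest rise was in a row at 0.168, 0, 0, 1.06 and 7.8 CPM from P1a to P8b and at 23.1, 15.9, 78.2 and 257 CPM from P12a to P21. No overlap was seen between the periods, with P8b the highest early and P21 the highest late library. The pooled ratio was 205 (95% interval from counting 99 to 511), with 942 UMIs late and 7 early. This row was not called with the P1 libraries summed (edgeR adjusted p = 0.0699), without P1 (0.244), or without P1a, P1b or P4. Other cells of the P12 to P21 libraries held 7.25 to 128 CPM of it. Amacrine cells rose as well, from at most 1.44 CPM in P1 to P8 to 19.5, 22.2, 75.7 and 195 CPM from P12a to P21. The rise was thus not particular to RGCs.

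Rows that lead in other classes were followed as lists of 20, chosen without RGCs. Summed over its list, the cone level in RGCs was 204 to 528 CPM in P1 to P8 and 581 to 1724 CPM in P12 to P21, the highest at P21. In amacrine cells the same sum was 85 to 345 CPM and 472 to 3255 CPM. The horizontal cell sum in RGCs was 916 to 1654 CPM early and 1765 to 2882 CPM late, and the bipolar sum 730 to 1354 CPM and 1221 to 1915 CPM. The rod sum did not exceed 74.8 CPM and the Müller glia sum 420 CPM in any library. The amacrine sum in RGCs was 2019 to 3396 CPM early and 2285 to 4608 CPM late. The largest sum was that of late-stage primary progenitors, at 5522 to 11417 CPM and 4845 to 9583 CPM. The lists differ in how far their rows lead in their own class. The lowest log2 ratio in a list was 0.11 for late-stage primary progenitors and 0.21 for photoreceptor precursors. It was 2.82 for rods and 3.28 for horizontal cells. Since RGCs were left out of the choice, a listed row can also be expressed by RGCs, and the sums are not levels of another class within RGCs. The photoreceptor precursor sum and the progenitor sums had lower means late than early, for example 713 against 1041 CPM for late-stage neurogenic progenitors. The part of these levels in the named rises was not tested.

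The named rows that fell were in the main more abundant in other cells than in RGCs. In 6 of the 10 named rows the highest other class was a progenitor class, and in 2 it was Müller glia. The row with the largest fall was at 32.9 CPM in P1a, 53.8 in P1b, 98.2 at P4, 12.8 in P8a and 57.7 in P8b, and at 0.699, 0.882, 0.923 and 2.13 CPM in P12a, P12b, P17 and P21. Early and late libraries did not overlap, and P8a was the lowest early library. This was a log2 change of −5.37 ± 0.58 (SE; edgeR adjusted p = 0.00352), and it was called with each of the 9 libraries left out in turn. Early-stage primary progenitors held 1485 CPM of it, and other cells went from 33 to 909 CPM early to 0.819 to 5.85 CPM late.

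Row 27128 was the other row called with each library left out. It was at 150, 191, 288, 165 and 226 CPM from P1a to P8b and at 42.6, 42.3, 22.5 and 13.2 CPM from P12a to P21. No overlap was seen between the periods, and the levels before birth were higher, at 417 to 1814 CPM. This was a log2 change of −2.74 ± 0.34 (SE; edgeR adjusted p = 0.00692), and it was called with the P1 libraries summed (−2.78, edgeR adjusted p = 0.0139) and without P1 (−2.87, edgeR adjusted p = 0.0292). Early-stage neurogenic progenitors held 3897 CPM, and other cells 1057 to 2116 CPM early and 25.8 to 420 CPM late.

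Another 4 rows that fell had log2 changes of −3.80, −2.63, −2.56 and −2.51 (edgeR adjusted p = 0.0147, 0.0147, 0.0171 and 0.0147). Each was at least 3 times higher in other cells than in RGCs by the early means, for example 1297 against 99.3 CPM in the row with the change of −2.56. In a further 2 rows other cells were at 120 and 111 CPM against 66.1 and 74.5 CPM in RGCs. The first 4 were called with the P1 libraries summed and these 2 were not, and without P1 none of the 6 was called. The part of RNA from other cells in these falls was not tested.

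The remaining 2 rows fell from levels that were higher in RGCs than in other cells. Row 7097 was at 325, 238, 211, 112 and 111 CPM from P1a to P8b and at 74.1, 87.9, 57.2 and 34.2 CPM from P12a to P21. Early and late libraries did not overlap, and the other cells were at 64 to 130 CPM early and 8.34 to 47.7 CPM late. This was a log2 change of −1.68 ± 0.38 (SE; edgeR adjusted p = 0.0478). The call was lost with the P1 libraries summed (−1.48, edgeR adjusted p = 0.0936) and without P1 (−1.16, edgeR adjusted p = 0.294), and held in 3 of 9 fits with 1 library left out (without P8a, P8b or P12b). This row leads in early-stage neurogenic progenitors, which held 285 CPM, and embryonic RGCs held 252 to 475 CPM of it.

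The other of them was at 69.4, 90.9, 149, 76.6 and 79.6 CPM from P1a to P8b and at 39.2, 44.1, 26.8 and 18.8 CPM from P12a to P21. No overlap was seen between the periods, with P4 the highest library. Its log2 change was −1.51 ± 0.30 (SE; edgeR adjusted p = 0.0347), and it was not called with the P1 libraries summed (edgeR adjusted p = 0.0699), without P1 (0.219), or without P1a, P1b, P4, P17 or P21. Other cells were at 16.6 to 38.8 CPM early and 9.16 to 46.8 CPM late.

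**Figure D4:**
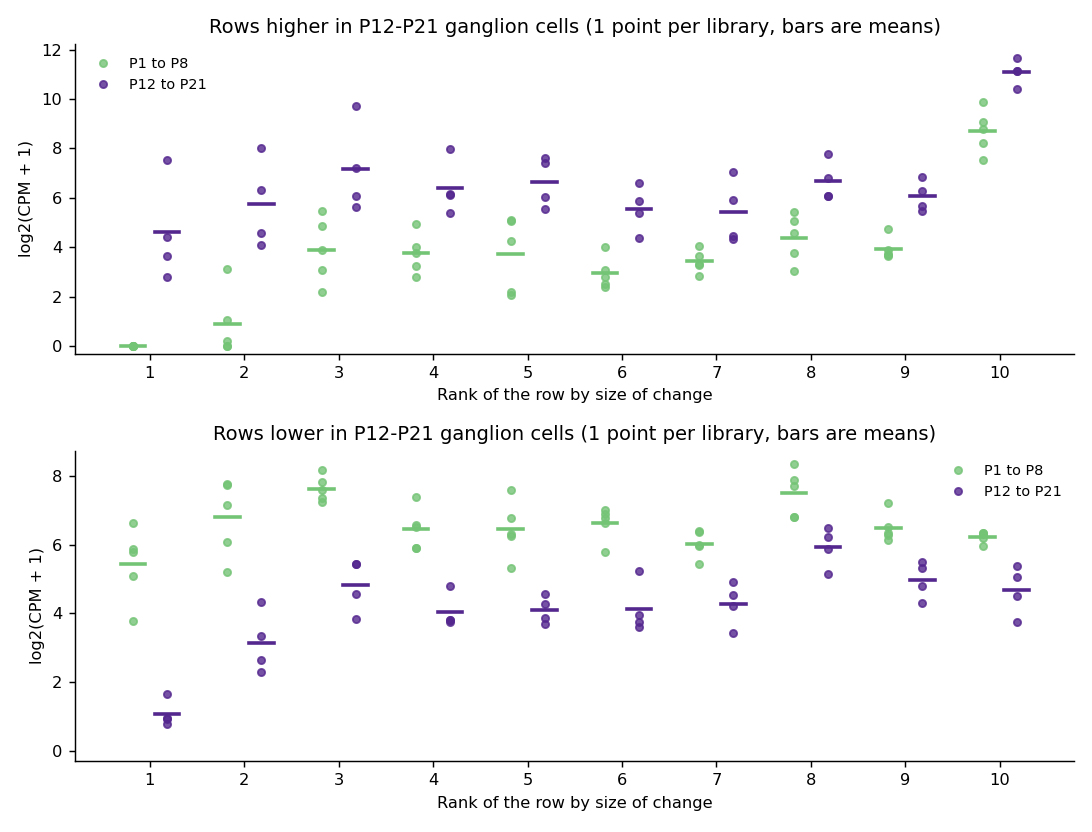
Level in RGCs, as log2(CPM + 1), of the 10 rows that rose and the 10 rows that fell most from P1 to P8 (green, 5 libraries) to P12 to P21 (purple, 4 libraries). Bars are means of the plotted values. Rows are ordered by the size of their change, and the periods do not overlap in any of the 20 rows, which the choice of rows required.

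Of the 20 rows that lead in embryonic RGCs, 0 were called up and 0 down between the periods by edgeR, against 0.76% and 0.618% of all tested rows. An unadjusted p below 0.05 was reached by 7 rows up and 6 down (2246 of 11971 over all tested rows), and DESeq2 called 4 up and 1 down. Their median log2 change was −0.19, against −0.02 over all tested rows. Changes of single rows ran from −1.86 ± 0.47 (row 32594) to 1.01 ± 0.30 (SE, the row of rank 16). With day as a covariate 4 of them were called up and 6 down by edgeR, against 6.55% and 5.04% of all tested rows, among them row 17562 at 0.76 ± 0.15 log2 units per 10 days (SE; adjusted p = 0.00466) and row 5912 at −0.65 ± 0.15 (SE; adjusted p = 0.0132).

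The third comparison asks whether the change from P1 to P8 to P12 to P21 differed between RGCs and amacrine cells of the same libraries. Of 14340 tested rows 1511 (10.5%) were called by edgeR, 663 (4.62%) with a more positive change in RGCs and 848 (5.91%) with a more negative one. The count was 698 (4.93%) with the P1 libraries summed, 289 (2.04%) more positive and 409 (2.89%) more negative, and 92 without P1. Leaving out P1a, P1b, P4 or P17 gave 704, 546, 844 and 822. Without the library as a block, 15 were called.

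Row 19950 had a more positive change in RGCs than in amacrine cells. In RGCs it was at 83.2, 122, 79.8, 244 and 173 CPM from P1a to P8b and 318, 455, 552 and 664 CPM from P12a to P21. In amacrine cells it was at 31.3, 47, 74.3, 61.2 and 106 CPM and then 37.2, 28.7, 56.4 and 58.7 CPM. The RGC periods did not overlap and the amacrine periods did. The difference of the changes was 2.51 ± 0.30 log2 units (SE; edgeR adjusted p = 0.000419; 0.00199 with the P1 libraries summed and 0.00147 without P1), and the RGC change alone was 1.84 ± 0.33 (SE; edgeR adjusted p = 0.0285; 0.0699 with the P1 libraries summed and 0.243 without P1). Embryonic RGCs were at 468 to 739 CPM, so that the P1 and P4 libraries were the low point of this row.

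Row 6236 moved apart in the classes. RGCs were at 46.2, 91.6, 109, 112 and 150 CPM and then 152, 150, 174 and 193 CPM, and amacrine cells at 45.2, 67.3, 62.7, 35.8 and 61.8 CPM and then 25.5, 21.6, 20.5 and 22.2 CPM. The classes started level in P1a and were furthest apart at P21. The difference was 2.35 ± 0.25 (SE; edgeR adjusted p = 0.000193; 0.00103 with the P1 libraries summed and 0.00147 without P1). The row was not particular to RGCs. All other cells together held 247 to 374 CPM of it in P1 to P8 and 99 to 174 CPM in P12 to P21. Müller glia had the highest postnatal mean of the other classes, 780 CPM. The other 3 rows with a more positive change differed by 2.49, 2.38 and 2.19, with adjusted p of 0.00179, 0.0171 and 0.0013 in edgeR, and none of the 3 was called without P1 (edgeR adjusted p = 0.11, 0.143 and 0.0594).

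Rows with a more negative change in RGCs were, in 3 of the 5 named, present in RGCs first and in amacrine cells later. Row 2358 was at 149, 102, 153, 373 and 153 CPM in RGCs of P1a to P8b and at 531, 398, 498 and 1051 CPM from P12a to P21. In amacrine cells it was at 2.64, 3.65, 10.2, 27.7 and 23 CPM and then at 321, 188, 764 and 1935 CPM. Both classes had more at the later ages without overlap, and amacrine cells passed RGCs at P17. The difference was −3.83 ± 0.47 (SE; edgeR adjusted p = 0.000419; 0.00252 with the P1 libraries summed and 0.00301 without P1). The later gain was not particular to these 2 classes. All other cells together held 3.62 to 23.9 CPM of the row in P1 to P8 and 102 to 1738 CPM in P12 to P21. Cones had the highest postnatal mean of the other classes, 814 CPM.

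Another row was level in RGCs, at 51.2, 54.6, 73.4, 50 and 67.1 CPM and then 55.9, 33.8, 49.5 and 42.7 CPM. Amacrine cells had 1.65, 1.83, 1.86, 4.47 and 7.18 CPM and then 13.7, 17.5, 22.9 and 31.3 CPM. The RGC periods overlapped, and each later amacrine library was above each earlier one. The difference was −3.03 ± 0.38 (SE; edgeR adjusted p = 0.000434).

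Row 14232 was at 30.2, 24, 61.5, 84.1 and 62.4 CPM and then 97.9, 47.6, 82.8 and 171 CPM in RGCs. Amacrine cells were at 0.33, 0.261, 1.39, 47.8 and 25.9 CPM and then 118, 107, 137 and 196 CPM. It was near 0 in amacrine cells up to P4, when RGCs already held it. The difference was −2.90 ± 0.61 (SE; edgeR adjusted p = 0.00923; 0.0278 with the P1 libraries summed), and without P1 it was −2.05 (edgeR adjusted p = 0.0611), which missed the threshold. A further row had a difference of −2.90 ± 0.74 (SE; edgeR adjusted p = 0.0229; 0.0722 with the P1 libraries summed and 0.21 without P1), going from 125 and 123 CPM in the P1 RGCs to 25.2 to 43.8 CPM late, and bipolar cells held 563 CPM of it.

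The row with the most negative difference did not follow the periods. It was at 0.336, 0.135 and 0 CPM in P1a, P1b and P4, at 168 and 234 CPM in P8a and P8b, at 4.19 and 0.882 CPM in P12a and P12b, and at 110 and 276 CPM at P17 and P21. The P12 RGCs were low between high P8 and P17 values, while P12 amacrine cells held 79.2 and 65.5 CPM. The difference was −3.85 ± 1.08 (SE; edgeR adjusted p = 0.0347), and it was not called with the P1 libraries summed (0.062) or without P1 (0.104). It was also the only row called with P8 and P12 alone (log2 change −6.50 ± 0.58 SE, edgeR adjusted p = 0.000802), of 9996 tested rows of which 220 had an unadjusted p below 0.05.

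Of the 20 leading rows 0 had a more positive and 6 a more negative change in RGCs than in amacrine cells by edgeR, against 4.62% and 5.91% of all tested rows. DESeq2 called 0 and 4, and 1 and 9 had an unadjusted p below 0.05 in edgeR. The 6 differences ran from −2.18 (row 32594) to −0.83. Amacrine levels of these rows were at most 136 CPM in any library. They were not low throughout. In the row of rank 4 amacrine cells ranged from 9.89 to 95.9 CPM, against 83 to 139 CPM in RGCs. In the rows of rank 17 and 18 amacrine cells ranged from 8.62 to 67.4 CPM and from 8.9 to 56.8 CPM.

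**Figure D5:**
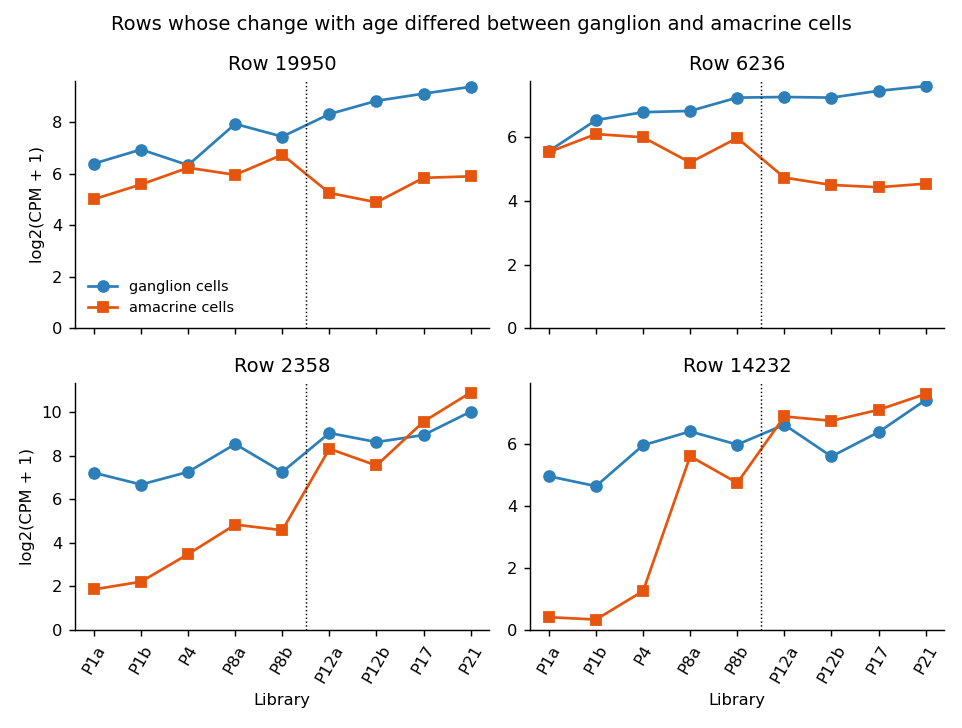
Level, as log2(CPM + 1), of 4 rows in RGCs (circles) and amacrine cells (squares) of the 9 postnatal libraries. Lines join libraries in the order of age and the dotted line parts P8 from P12. Rows 19950 and 6236 separate upward in RGCs, and rows 2358 and 14232 are low in amacrine cells of P1 and P4 and approach or pass the RGC level later.

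RGCs also differed among themselves. Leiden clustering of the 2820 cells gave 21 clusters, which stay unnamed, and cluster genes are descriptions of the cells clustered. The libraries were clustered together without a correction for library. The same row led a cluster of 128 cells with 0 from P17 and a cluster of 30 cells, all from P17. A cluster of 157 cells with 0 from P1b shared leading rows with one of 110 cells, 109 of them from P1b. The number of clusters and their ages can thus reflect a split by library. In 9 clusters over 90% of the cells came from 1 library (1006 cells, 35.7%). The most extreme was a cluster of 188 cells, all from P21 and 89.1% of the RGCs of that library, led by the row with the largest rise and by row 10194. The first of these was at 189 CPM in the cluster and at 127 CPM in the other RGCs of P21, against at most 20.3 CPM in the RGCs of any other library, so that it was high across P21 and not only in the cluster.

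A further 10 clusters, with 1602 cells (56.8%), had at least 5 cells in 5 or more libraries. A cluster of 165 cells was marked by 1 row. In each of the 8 libraries with 5 or more of these cells it was at 53.9 to 165 CPM in the cluster and at 0 to 3.35 CPM in the other RGCs. It was detected in 32.1% of the cluster's cells and in 0.377% of the other RGCs.

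A cluster of 183 cells found in all 9 libraries was led by a row whose level there was 272 CPM in P1a, 144 in P1b, 154 at P4, 490 in P8a, 324 in P8b, 81.5 in P12a, 42.5 in P12b and 55.3 at P17, against at most 3.45 CPM in the other RGCs of these libraries. The leading row of 129 cells, also spread over all 9 libraries, was at 21.6 to 390 CPM against 1.97 to 19.7 CPM. That of 197 cells was at 312 to 982 CPM, against 40.7 to 118 CPM in the others. Each of the 3 leading rows was at least 2-fold above the other RGCs in 8 of the 8 libraries with 5 or more cells of its cluster.

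Another 2 clusters recurred with at most 1 cell from P1, which cannot be told apart from a split by library. A row marked 92 cells at 227 to 349 CPM, against 8.03 to 20 CPM, in the 6 libraries from P4 to P17 that held 5 or more of them. The rise with birth of the smallest adjusted p was in the row that marked 179 cells at 410 to 924 CPM against 13.7 to 45.5 CPM in 5 libraries of P4 to P12. It was thus held by 79.3% of these cells and by 18.6% of the other RGCs. Row 2358, one of the rows that amacrine cells gained late, marked 146 cells, 43 of them from P1b. It was there at 737 to 2585 CPM in P8a, P8b, P12a, P12b and P17, against 109 to 218 CPM in the other RGCs, and at 84.9 against 103 CPM in P1b.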

How the data were processed

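Whole-retina libraries (10x 3′ v3.1) gave UMI counts per matrix row and cell. Per the methods and the submitters' processing notes, the authors used Cell Ranger 3.1.0 (with its aggr step) and Seurat 4.0.4 and named cell types by cluster. The methods name the assembly HiC_Itri_2, the notes the mouse build GRCm38. The deposited counts are whole numbers, not normalized. The sources used here do not give cell filters, doublet removal or subsampling by aggr, and doublets were not called. High-UMI RGCs (98 cells, 3.48%, above 2 times their library's median) were left out as an alternative. The matrix has 34181 rows and the name list 30265 entries without row numbers.

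The members and lists were chosen with earlier results of these data known. Counts were summed per library and class (at least 10 cells) and tested with edgeR 4.0.16 in R 4.3.3 (filterByExpr, TMM, glmQLFit, glmQLFTest, Benjamini-Hochberg adjusted p below 0.05). The SE is the log2 change divided by the square root of F. The interaction fit had the library as a block. The study tested single cells in Seurat, in place of which sums per library were used, since cells are not replicates. DESeq2 1.42.0 was an alternative. CPM are UMIs per 1e6 UMIs of a sum, without TMM. Clusters came from scanpy 1.11.5 (2000 rows, 30 components, 15 neighbours, resolution 0.5). The order of cell table and matrix was checked with 500 held-out RGCs, of which 99.8% lay nearest the RGC mean.

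Named rows were, for the early-late and the birth comparison, the 10 or 5 largest called rises and falls with libraries that did not overlap and a mean of at least 50 CPM in the higher group. For the interaction they were the 5 most positive and 5 most negative called rows at 50 CPM. The gene lists that need names could not be used. Since no names could be paired, of these the 2 rises and 2 falls with the highest mean CPM in the higher group, and a few leading rows, are given by number, a limit added after the values were seen. On simulated data the early-late fit recovered 56.9% of 2-fold and 100% of 4-fold changes over 12041 rows, with 9 false calls. The interaction fit recovered 24.3% and 86.5%. The simulation gave every row the same dispersion and held no library effect and no change with age within a period. It therefore does not give the recovery under the spread of the real libraries. The letters a and b are not the labels' replicate numbers.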

Additional observations from a re-analysis of the deposited data

Results flagged for a closer look

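Within a period or stage, single libraries stood far from the others in 15 of 126 groups tested, where chance flags about 1 in 20. P21 was high in row 10194 (840 CPM, the others of P12 to P21 at most 147, and also the highest of all 9 postnatal libraries) and in row 11210 (3381 CPM against at most 1909 in the 9 postnatal libraries). It was also high in the row with the largest rise between the periods (184 CPM, the others at most 20.3), in the row that horizontal cells lead (254 CPM against at most 70.6), in the row with the largest fall (2.13 CPM against at most 0.923) and in the row highest in the youngest embryonic RGCs (0.854 CPM against at most 0.308). The row with the largest rise and row 10194 also lead the cluster of 188 cells found in P21 alone.

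P12a was high among the P12 to P21 libraries in 2 rows that fell, with changes of −2.63 (26.6 CPM, the others at most 12.9) and −2.51 (36.4 CPM, the others at most 14.5). P8b was high among the P1 to P8 libraries in the row with the second largest rise (7.8 CPM, the others at most 1.06) and in a row whose change was more positive in RGCs than in amacrine cells (37.4 CPM, the others at most 14). P8a was high in row 2358 (373 CPM, the others at most 153) and in the rise with the smallest adjusted p (25.5 CPM, the others at most 14), and P4 in the fall with a change of −1.51 (149 CPM, the others at most 90.9). The row with the largest fall from the embryonic to the postnatal libraries was at 0.27 CPM in P1b and at 0 in the other postnatal libraries.

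The change with age differed between RGCs and amacrine cells in 1511 rows by edgeR's interaction test. Among the rows chosen for description the change in RGCs minus that in amacrine cells was 2.51 in row 19950 and 2.35 in row 6236 on the log2 scale, and 2.49, 2.38 and 2.19 in the other 3 with a more positive change. It was −3.83 in row 2358, −2.90 in row 14232, and −3.85, −3.03 and −2.90 in the other 3 with a more negative change. Among the leading RGC rows it was −2.18 in row 32594 and −1.51, −1.46, −1.37, −1.35 and −0.83 in another 5.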

How the results depend on the processing

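The count of rows called between the postnatal periods (165) was 667 with DESeq2, 797 with no filter on low counts, 1387 with day as a covariate, 94 with equal cell numbers per library, 68 with thinned sums, 9 with the P1 libraries summed and 2 without P1. After seeing the data, it was 9 without P4 and P8b and 1 with P8 and P12 alone. With any 1 library left out it ran from 5 to 358. No named row of this comparison reversed in 395 alternative values, and 144 of them were no longer past the threshold. The rows were chosen for periods that did not overlap, so fits on parts of the same libraries could hardly reverse their sign. For the birth comparison (7221) the count was 3534 with thinned sums, 6 with E26 and P1 alone, and 6543 to 7494 with any 1 library left out. Its 10 named rows, chosen in the same way, stayed past the threshold in 230 of 237 alternative values and reversed in 0. For the interaction (1511) it was 698 with P1 summed, 92 without P1, 344 with thinned sums, 15 with no library block, and 546 to 1873 with 1 library left out, and 125 of 160 values of its named rows stayed past the threshold with 0 reversed. The named interaction rows were chosen as the largest called differences, which also bears on the lack of reversals. Fewer rows or libraries enter the thinned and left-out fits, and otherwise the cause was not tested.

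The share of RGCs against age (rho −0.73) was −0.61 with P1 summed, −0.42 without P1, −0.64 among ganglion, horizontal and amacrine cells, −0.63 without high-UMI cells, −0.53 without P4 and P8b, and −0.61 to −0.87 with 1 library left out. Of the 20 leading rows 9 were chosen again in postnatal libraries. Clusters numbered 35 at resolution 1.0, against 21. No paired analysis was possible because the library suffixes do not carry the replicate numbers of the labels.

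With 640859 UMIs in P8b, 3 UMIs correspond to several CPM, so low rows are least certain there. RNA from lysed cells, doublets and the pooling of animals were not tested.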
